A study of Mus musculus with 22 samples.

Results

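Ligands and receptors that pass between neurons and microglia were followed in the primary motor cortex (M1) of mice lacking estrogen receptor beta. The set has 10 genes, namely the ligands Cx3cl1, Cd200, Cd47, Il34, Csf1 and Tgfb1 and the receptors Cx3cr1, Csf1r, Sirpa and Tgfbr1. Members were found by gene symbol in the annotation of the count table, and 9 of the 10 were matched, out of 15297 genes in all. Tgfb1 was not analysed here. The 9 genes had 73 features in the count table, out of 112460, and 63 of these held reads. The set was chosen by role and also selected on measured values, the genotype differences of these same mice, so the genotype values of the members describe them and support nothing beyond that.

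Microglia are the resident macrophages of the brain and are held in a surveying state by signals from neurons. Fractalkine (Cx3cl1) is a neuronal chemokine that is displayed on the membrane or shed, and its receptor Cx3cr1 marks microglia in the brain. Cd200 and Cd47 are surface glycoproteins that restrain myeloid cells, Cd47 through the inhibitory receptor Sirpa. Il34 and Csf1 are alternative ligands of the receptor tyrosine kinase Csf1r, on which the survival of microglia depends, and Tgfb1 acts through Tgfbr1 to maintain microglial identity.

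All mice were C57BL/6 males aged 16 to 20 weeks, and they were either wild type (WT, 6 mice) or ERb-/- (BERKO, 5 mice). A needle biopsy was taken from the left and from the right M1 of each mouse, giving 22 biopsies. Each biopsy gave 10 ng of total RNA for STRT sequencing, which tags and counts the 5' ends of transcripts. Per the labels 1 further BERKO sample was removed by the submitters as an outlier. The labels name no promoter or cell type that would limit the loss of the receptor to one kind of cell.

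The sequences before the start of the 3 members whose levels are described most closely below differ in their bases and in the short motifs they match. They come from RefSeq (GRCm38.p6) and end at the base before the annotated start, at chr8:94772060-94772179 on the + strand for Cx3cl1, chr9:120068297-120068416 on the - strand for Cx3cr1 and chr16:45409054-45409173 on the - strand for Cd200. Capitals mark a TATA box (TATAAA), a GC box (GGGCGG) or a CCAAT box (CCAAT), read on both strands.
Cx3cl1: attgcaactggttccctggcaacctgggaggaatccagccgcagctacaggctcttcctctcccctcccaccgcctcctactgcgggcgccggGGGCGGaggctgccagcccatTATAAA
Cx3cr1: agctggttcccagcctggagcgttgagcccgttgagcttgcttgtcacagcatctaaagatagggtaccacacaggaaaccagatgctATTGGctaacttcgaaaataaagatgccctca
Cd200: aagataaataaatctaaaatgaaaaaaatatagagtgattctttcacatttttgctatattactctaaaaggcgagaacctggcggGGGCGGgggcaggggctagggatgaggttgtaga
The Cx3cl1 stretch holds a GC box and the letters TATAAA, and 64.2% of its bases are G or C. These letters lie directly before the annotated start, and whether they act as a TATA box was not tested. The Cx3cr1 stretch (49.2% G or C) holds a CCAAT box on the opposite strand and neither of the others. The Cd200 stretch (40% G or C) holds a GC box and no TATA box. Over windows of 250 bases before to 50 after the start, TATAAA occurred in 13.6% of 32851 promoters, GGGCGG in 35.7% and CCAAT in 37.4%. Windows were given for 7 of the 10 members. None of their 9 windows held the estrogen response half-site AGGTCA, found in 16.3% of all promoters. Nor did any hold its paired form (GGTCA and TGACC separated by any 3 bases, in 0.0700%) or the PU.1 core GAGGAAGT (in 3.2%). A match or its absence concerns only these letters in this window.

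Reads on genes per biopsy ranged from 239058, in a library (BERKO replicate 5, left) with counts from 1 lane rather than 3, to 1893400. Per mouse they ranged from 1353208 to 2722667 in WT and from 968219 to 1626675 in BERKO. A count of 3 reads corresponds to between 1.10 and 3.10 CPM per mouse, where CPM is the read count scaled to a common library size. Levels below are CPM of 5' ends after TMM scaling. They are not scaled by transcript length, since each transcript gives 1 end, and no relative abundance between genes is read from them. The left and right biopsies of WT replicate 1 and the left biopsy of WT replicate 2 stand apart from the other libraries. On the first principal component of 5419 genes (15.2% of the variance) they lay at -49.8, -41.7 and -43.7, and the other 19 libraries between -9.57 and 19.9. Leaving them out drops WT replicate 1 and leaves WT replicate 2 with its right biopsy alone, so that WT has n = 5. Values without them are given where they moved a printed difference of a member, member feature, ratio or marker sum by over 1.5 times. For other printed differences, such as those of pathway genes and feature classes, no such values were read. The column names hold a code of a letter and a digit, read here as the well of a plate, which the labels do not state. By that reading WT and BERKO occupied different plate rows, so plate row and genotype cannot be told apart. Marker genes of neurons (Syt1, Camk2a, Stmn2) and of microglia (C1qb, Ctss) were read in every mouse. In bulk tissue fewer cells and less RNA per cell cannot be told apart.

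Summed per gene, no member differed between the genotypes past an adjusted p of 0.05 (edgeR quasi-likelihood test, 6 WT and 5 BERKO mice), nor in any of 19 alternative fits per member. Of 9025 genes tested 0.0776% passed, and 7 of the members passed the expression filter and were tested. Of these 7, 6 were higher in BERKO and Cd200 alone was lower. The median log2 fold change of the 7 was 0.46, beside -0.0069 for all genes, of which 49.2% were positive. Since the members were selected on these same differences, their direction and median are a description and no test of the set. Scaling on spike-in reads moved the median of all genes to 0.19 and the calls from 4 higher and 3 lower to 43 higher and 2 lower, and each of the 7 members kept its direction. Cx3cr1 and Cd200 were the members whose WT and BERKO mice did not overlap. That separation held for 1.32% of all genes tested.

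**Figure D1:**
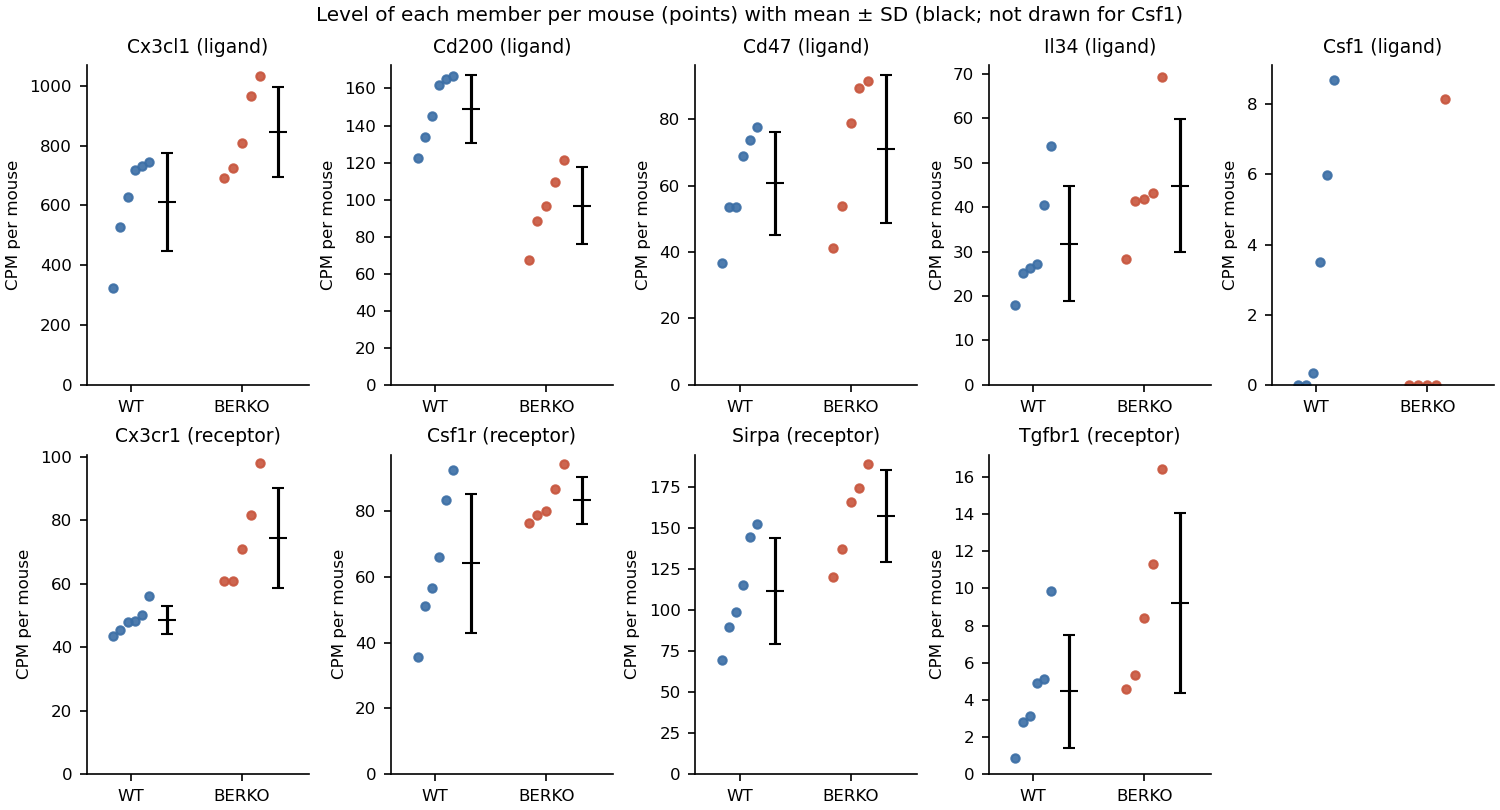
Level of 9 members in CPM (vertical axes from 0), 1 point per mouse, WT in blue and BERKO in red, with mean ± SD in black (not drawn for Csf1, which is at 0 in 6 mice). Cx3cr1 and Cd200 separate the genotypes, in opposite directions, while the other panels overlap.

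Cx3cl1, the fractalkine ligand, had 12960 reads over all biopsies. In WT it lay at 323 CPM in the lowest mouse, 673 at the median and 746 in the highest. The BERKO mice, replicates 2 to 6, had 724, 1033, 809, 967 and 691 CPM. The groups overlapped, and WT replicate 1 was the lowest of the 11 mice. Mean levels of 613 ± 164 CPM (WT, SD, n = 6) and 845 ± 150 (BERKO, SD, n = 5) gave a log2 fold change of 0.46 ± 0.18 (standard error, adjusted p = 0.388 by edgeR). The value was 0.17 ± 0.18 when only 5' UTR and upstream features were counted, 0.29 ± 0.14 without the 3 WT libraries that stand apart and 0.71 ± 0.18 (adjusted p = 0.0530) when scaled on spike-in reads, where the median of all genes was 0.19.

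Cd200, whose receptor on myeloid cells is Cd200r1, was the only tested member with a lower level in BERKO. WT mice had 122 CPM in the lowest, 153 at the median and 167 in the highest. BERKO replicates 2 to 6 had 110, 121, 96.5, 67.3 and 88.4 CPM. All BERKO mice lay below all WT mice, though the lowest WT mouse (122 CPM) and the highest BERKO mouse (121 CPM) nearly met. The means were 149 ± 18.4 CPM (SD, n = 6) and 96.7 ± 20.7 (SD, n = 5), a log2 fold change of -0.63 ± 0.18 (adjusted p = 0.197 by edgeR), which ranked 63 of 9025 genes by p. Without the 3 WT libraries the change was -0.36 ± 0.22 (adjusted p = 0.736) and the groups overlapped, with WT at 54.7 to 161 CPM and BERKO at 66.8 to 119. Its reads came mostly from 1 feature, since 94.2% fell in the 5' UTR feature at mm9 position 45409137 of chromosome 16 on the - strand.

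Cd47, the ligand of Sirpa that inhibits phagocytosis, differed little. WT mice had 36.6, 61.2 and 77.7 CPM at the lowest, median and highest, and BERKO replicates 2 to 6 had 41.1, 91.5, 78.9, 89.4 and 53.9. The groups overlapped over most of their range, and the log2 fold change was 0.22 ± 0.24 (adjusted p = 0.810 by edgeR), and 0.13 ± 0.25 without the 3 WT libraries. Its reads were spread along the transcript, with 18.7% in the 5' UTR feature and 25.6% in the 3' UTR feature.

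Il34, the ligand of Csf1r that neurons make, had 680 reads in all. WT mice had 17.9, 26.8 and 53.8 CPM at the lowest, median and highest. In BERKO the 5 mice (replicates 2 to 6) had 41.9, 69.3, 41.4, 43.1 and 28.2 CPM, and the groups overlapped. The log2 fold change was 0.50 ± 0.30 (adjusted p = 0.582 by edgeR). Csf1, the other ligand of Csf1r, was near the limit of detection with 50 reads. It was at 0 in 2 of 6 WT and 4 of 5 BERKO mice and did not pass the expression filter. All 13 of its BERKO reads came from replicate 6 and from a 3' UTR feature.

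Among the receptors Cx3cr1, the fractalkine receptor of microglia, separated the genotypes. WT mice had 43.4 CPM in the lowest, 48.1 at the median and 56.1 in the highest. BERKO replicates 2 to 6 had 70.8, 60.7, 98.0, 61.0 and 81.5 CPM. All BERKO mice were above all WT mice, and the WT mice lay close together. The means were 48.5 ± 4.41 CPM (SD, n = 6) and 74.4 ± 15.7 (SD, n = 5), a log2 fold change of 0.62 ± 0.21 (adjusted p = 0.314 by edgeR). Over all alternatives it lay between 0.50 and 0.83, with adjusted p of 0.160 to 0.522. Without the 3 WT libraries WT lay at 42.9 to 55.8 CPM and BERKO at 59.7 to 96.7, again with no overlap. Of its reads 87.5% fell in the 5' UTR feature at mm9 position 119977402 of chromosome 9 on the - strand, where the change was 0.52 ± 0.22 (adjusted p = 0.366).

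Csf1r, the receptor tyrosine kinase of microglia, had WT mice at 35.5, 61.2 and 92.6 CPM (lowest, median, highest). The BERKO mice, in the same order, had 86.8, 94.3, 78.9, 80.0 and 76.5 CPM. The groups overlapped, with 4 of 5 BERKO mice within the WT range and 1 just above it. Over mice BERKO had an SD of 7.26 beside 21.1 in WT. Over single biopsies the order was the reverse, with 28.9 (left) and 30.9 (right) in BERKO and 21.8 on either side in WT. The log2 fold change was 0.38 ± 0.22 (adjusted p = 0.572 by edgeR), and 0.21 ± 0.22 without the 3 WT libraries. Reads came mostly from 1 feature again, with 91.9% in the 5' UTR feature at mm9 position 61265527 of chromosome 18 on the + strand.

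Sirpa, the inhibitory receptor for Cd47, which neurons also carry, had WT mice at 69.4, 107 and 152 CPM (lowest, median, highest). BERKO replicates 2 to 6 had 189, 174, 137, 166 and 120 CPM, and the groups overlapped. The log2 fold change was 0.49 ± 0.19 (adjusted p = 0.400 by edgeR), and it was 0.13 when only 5' UTR and upstream features were counted. Tgfbr1, the signalling receptor for Tgfb1, had 117 reads and did not pass the filter of the genotype test. WT mice ranged from 0.897 to 9.84 CPM and BERKO mice from 4.57 to 16.4 CPM, and the groups overlapped.

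**Figure D2:**
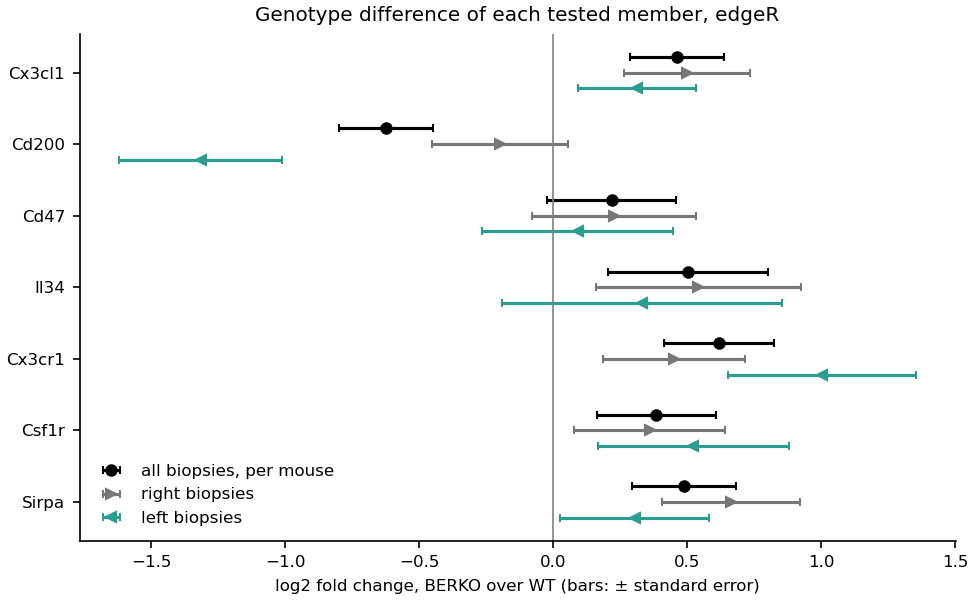
Log2 fold change of BERKO over WT (horizontal axis) for the 7 tested members, with bars of ± 1 standard error, for all biopsies summed per mouse and for right and left biopsies alone. Cd200 is the member to the left of 0, at -1.32 in the left biopsies and -0.20 in the right.

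The genotype difference was next read on each side alone. In right biopsies 0.065% of 7696 genes passed and no member did; in left biopsies 0% of 6616 genes passed (447 had an unadjusted p under 0.05). Cd200 differed on the left by -1.32 ± 0.30 (adjusted p = 0.336 by edgeR), and it ranked 2 by p among all genes tested there. On the right it differed by -0.20 ± 0.25 (adjusted p = 0.865). In left biopsies WT mice had 125 CPM in the lowest, 197 at the median and 423 in the highest, and BERKO replicates 2 to 6 had 140, 97.8, 91.9, 58.6 and 66.7. The WT values of 423 and 296 CPM came from replicates 2 and 1, whose left biopsies stand apart. Without these biopsies the change on the left was -0.86 ± 0.28 (adjusted p = 0.998). The genotype-by-side term of Cd200 was -1.07 ± 0.41 (adjusted p = 1 by edgeR), and 0% of 10016 genes passed for that term (316 had an unadjusted p under 0.05). Without the 3 WT libraries the term was -0.58 ± 0.42.

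Cx3cr1 differed between genotypes by 1.00 ± 0.35 on the left (adjusted p = 0.618) and by 0.45 ± 0.26 on the right (adjusted p = 0.657, both edgeR). Left biopsies of WT mice had 24.1, 37.8 and 45.5 CPM at the lowest, median and highest. BERKO replicates 2 to 6 had 35.3, 61.9, 101, 79.5 and 87.9 CPM on the left, so that BERKO replicate 2 alone lay within the WT range. The genotype-by-side term of Cx3cr1 was 0.55 ± 0.47 (adjusted p = 1).

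Left and right biopsies were then compared within mice, where 0% of 10016 genes passed and no member did (542 genes had an unadjusted p under 0.05). Each difference printed here is the mean of the WT and the BERKO side difference, equally weighted, and not that of WT alone. Cd200 was higher on the left in all 6 WT mice and in 1 of 5 BERKO mice, a log2 difference of left over right of 0.43 ± 0.20 (adjusted p = 0.866 by edgeR). That difference was 0.17 ± 0.21 without the 3 WT libraries, 0.26 without WT replicate 2 and 0.29 without BERKO replicate 2. Cx3cr1 was higher on the right in 5 of 6 WT mice and 1 of 5 BERKO mice, with -0.41 ± 0.24 (adjusted p = 0.945). Csf1r was higher on the right in 5 of 6 WT and 3 of 5 BERKO mice, with -0.43 ± 0.23 (adjusted p = 0.911). Il34 was higher on the right in 5 of 6 WT and 4 of 5 BERKO mice, with -0.58 ± 0.33 (adjusted p = 0.945). Sirpa ran the other way in WT, with the left higher in 5 of 6 WT mice and in 2 of 5 BERKO mice. Its difference over both genotypes was 0.21 ± 0.19 (adjusted p = 0.969 by edgeR). By the same reading of the column names, left and right biopsies also lay in different plate rows, so side and plate row cannot be told apart.

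**Figure D3:**
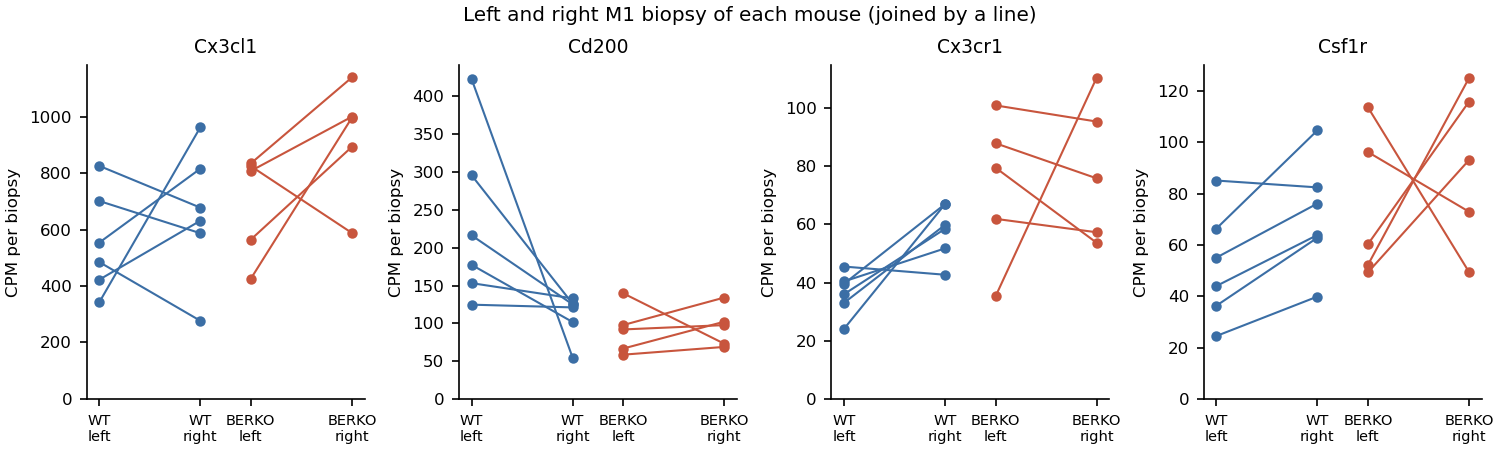
CPM of Cx3cl1, Cd200, Cx3cr1 and Csf1r (vertical axes from 0) in the left and right biopsy of each mouse, joined by a line, with WT in blue and BERKO in red. Every WT line of Cd200 falls from left to right, from values of up to 423 CPM.

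Read by deposited feature rather than by gene, 1 member feature differed between the genotypes. It was the 3' UTR feature of Cx3cl1 at mm9 position 97305336 of chromosome 8 on the + strand, with a log2 fold change of 0.99 ± 0.19 (adjusted p = 0.0306 by edgeR). Of 13128 features tested 0.114% passed, and 18 member features were tested. Its WT mice had 104, 200 and 294 CPM at the lowest, median and highest. BERKO replicates 2 to 6 had 355, 445, 371, 425 and 363 CPM, all above all WT mice. The share of all tested features that separate the genotypes in this way was not computed.

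The 5' UTR feature of Cx3cl1 at mm9 position 97296103, its main start with 59.1% of the reads, did not follow. WT mice had 251, 441 and 543 CPM there at the lowest, median and highest, and BERKO replicates 2 to 6 had 365, 534, 427, 502 and 320. The groups overlapped fully and the log2 fold change was 0.01 ± 0.17 (adjusted p = 0.987 by edgeR). The share of Cx3cl1 reads in the 3' UTR averaged 30.4% ± 4.5 over the WT mice (SD, n = 6, highest 38.5%) and 46.2% ± 3.5 over the BERKO mice (SD, n = 5, lowest 42.5%). Tested against the rest of its gene, the 3' UTR feature differed by 0.59 on the log2 scale (adjusted p = 0.711 by edgeR), which did not pass. In that test, added after the values were seen, 0.0296% of 6762 features passed.

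**Figure D4:**
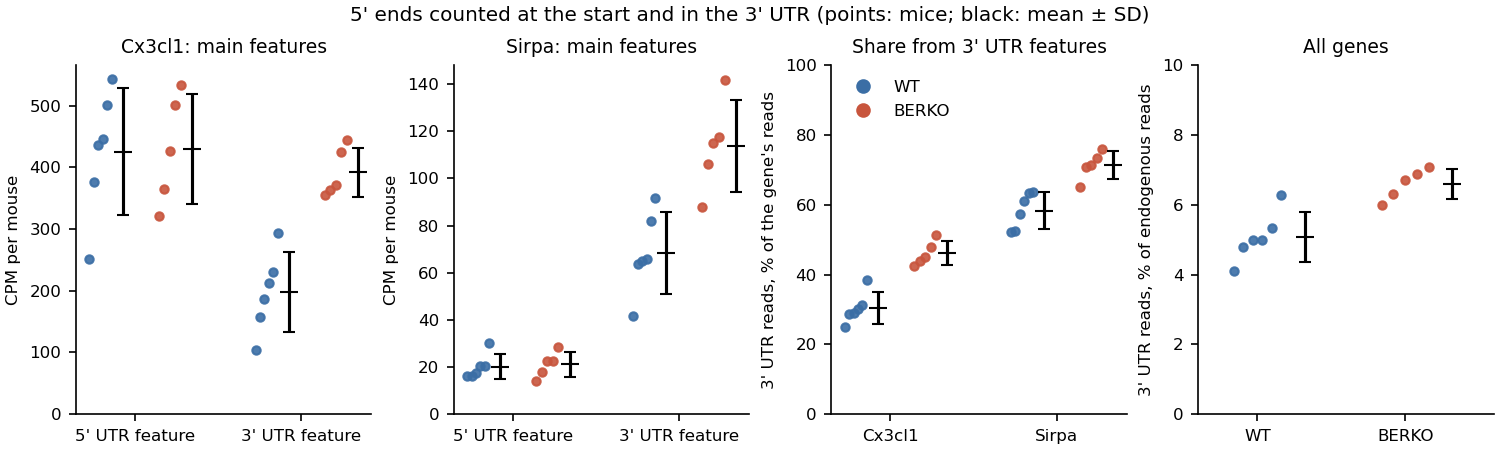
CPM of the main 5' UTR and 3' UTR features of Cx3cl1 and Sirpa, the percentage of each gene's reads in 3' UTR features, and that percentage over all endogenous reads, 1 point per mouse (WT blue, BERKO red) with mean ± SD in black. For Cx3cl1 the start feature overlaps while the 3' UTR feature separates the genotypes, and the share over all genes is also higher in BERKO.

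Most other 3' UTR features were also higher in BERKO. Of 1699 tested 3' UTR features 79.5% had a positive log2 fold change, with a median of 0.39, and 8.83% were at or above that of Cx3cl1. Features in the coding sequence (CDS) were shifted likewise. Of 2996 tested 75.2% were positive, with a median of 0.38, and 11.4% were at or above the Cx3cl1 value. The 5629 tested 5' UTR features had a median of -0.16, with 32.6% positive. 3' UTR features held 4.09% to 6.27% of endogenous reads in WT mice and 6.00% to 7.08% in BERKO mice. The part of these shifts in the Cx3cl1 result was not tested. When 1 mouse was left out the Cx3cl1 feature passed in 2 of 11 fits (without WT replicate 1 or WT replicate 4), with adjusted p from 0.00523 to 0.138, and without the 3 WT libraries it was 0.79 ± 0.17 (adjusted p = 0.05001, just above the threshold).

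No Sirpa feature passed. Its 3' UTR feature at mm9 position 129456150 of chromosome 2 on the + strand held 63.3% of its reads. WT mice had 41.6, 65.5 and 91.9 CPM there at the lowest, median and highest, and BERKO mice ranged from 87.8 to 142, so the groups overlapped. The log2 fold change was 0.73 ± 0.21 (adjusted p = 0.193), and the main 5' UTR feature gave 0.06 ± 0.34 (adjusted p = 0.965, both edgeR). Against the rest of its gene the Sirpa 3' UTR feature differed by 0.26 on the log2 scale, which did not pass. For Cd200 the 5' UTR feature was the only feature tested, and it gave -0.74 ± 0.18 (adjusted p = 0.137 by edgeR). It passed with DESeq2 (adjusted p = 0.0174), which called 99 features, and was -0.43 ± 0.23 (adjusted p = 0.593 by edgeR) without the 3 WT libraries. Leaving out all of WT replicate 1 gave -0.67, and all of WT replicate 2 gave -0.69. The 5' UTR feature of Csf1r gave 0.26 ± 0.23 (adjusted p = 0.689), and 0.12 ± 0.23 without the 3 WT libraries.

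Ligands were set against their receptors within each mouse, as the log2 ratio of reads with 0.5 added to each. Cx3cl1 to Cx3cr1 had a mean of 3.60 ± 0.46 over 6 WT mice and 3.50 ± 0.49 over 5 BERKO mice (both SD). Both genes were higher in BERKO, and their ratio moved by less than the spread between mice. Cd47 to Sirpa was -0.87 ± 0.21 in WT and -1.19 ± 0.57 in BERKO, where replicate 2 stood at -2.19 and the other 4 mice between -1.15 and -0.79. Il34 to Csf1r was -1.03 ± 0.69 in WT and -0.94 ± 0.35 in BERKO, again within the spread. The differences of BERKO from WT were -0.098, -0.32 and 0.086 in that order, and -0.30, -0.35 and 0.45 without the 3 WT libraries. On 5' UTR and upstream features alone Cx3cl1 to Cx3cr1 differed by -0.47, and without WT replicate 2 Il34 to Csf1r differed by -0.18, while without BERKO replicate 2 Cd47 to Sirpa differed by -0.071. A ratio of 5' ends of different genes is read only between mice, not as a ratio of molecules.

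Markers of the cells that make and receive these signals were summed per mouse, and all 11 cell type lists had a higher mean in BERKO. Summed microglial markers (14 genes, members left out) were 1039 ± 193 CPM in WT and 1345 ± 109 in BERKO, with ranges of 703 to 1253 and 1196 to 1486. That is a log2 ratio of 0.37 (exact permutation p = 0.0108, adjusted 0.0833 over 11 lists, two-sided, smallest possible p 0.00216), and 11 of 14 genes were higher in BERKO. Summed neuronal markers (12 genes) were 10433 ± 1623 CPM in WT (range 7911 to 12491) and 12624 ± 991 in BERKO (range 11410 to 13669), a log2 ratio of 0.28 (exact permutation p = 0.0303, adjusted 0.0833). No list passed after adjustment. Of the 6 monocyte and neutrophil markers Ccr2, Ly6c2 and Plac8 had 1, 0 and 0 reads in all, while Lyz2 had 127, S100a8 36 and S100a9 32. That list summed to 4.05 to 24.7 CPM in the WT mice and 6.43 to 18.2 in the BERKO mice, a log2 ratio of 0.21 (exact permutation p = 0.461, adjusted 0.461). Only 1 of its 4 measured genes, Lyz2, had a higher mean in BERKO, so the higher sum rests on that gene. Border macrophage markers summed to 48.8 ± 28.1 CPM in WT and 65.9 ± 29.3 in BERKO (exact permutation p = 0.398, adjusted 0.460). Endothelial and mural cell markers were higher by 0.55 and 0.56 on the log2 scale (exact permutation p = 0.0260 and 0.0281, adjusted 0.0833 each). The other lists were higher by 0.22 (astrocytes), 0.28 (oligodendrocyte precursors), 0.35 (oligodendrocytes), 0.39 (fibroblasts) and 0.39 (blood). Blood was read through 1 gene of 5, Alas2 with 528 reads, since Hbb-b1, Hbb-b2, Hba-a1 and Hba-a2 had no reads. Without the WT libraries that stand apart, oligodendrocytes were higher by 0.012, oligodendrocyte precursors by 0.14, astrocytes by 0.15 and blood by 0.75. Monocytes and neutrophils were then higher by 0.078, and border macrophages by 0.15, where all libraries gave 0.43. The part of cell composition in the members' values was not tested.

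**Figure D5:**
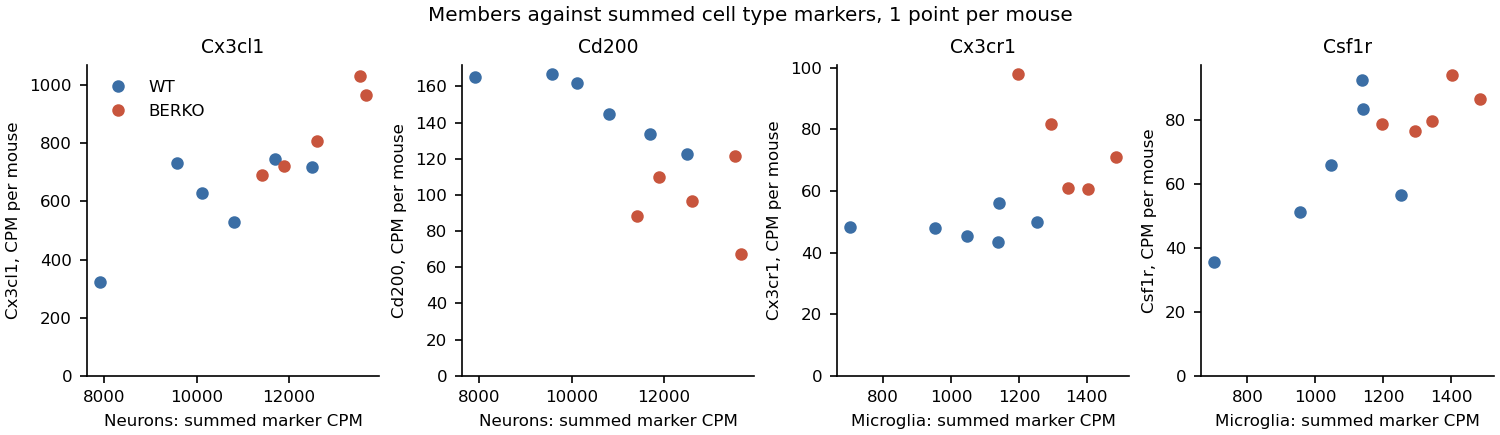
CPM of Cx3cl1 and Cd200 against summed neuronal marker CPM, and of Cx3cr1 and Csf1r against summed microglial marker CPM, 1 point per mouse (WT blue, BERKO red). Cx3cl1 rises and Cd200 declines with the neuronal sum, while the WT points of Cx3cr1 stay between 43.4 and 56.1 CPM.

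The levels of 8 members were set beside these sums over the 11 mice. The members were selected on the genotype differences of these mice and the sums also differ between the genotypes, so the correlations are a description with no test. Cx3cl1 had a Pearson r of 0.88 with the neuronal sum and a Spearman rho of 0.79. Without the 2 mice farthest from the median r was 0.90, and within the 6 WT mice it was 0.73. Il34 had an r of 0.74 and a rho of 0.87 with the same sum, with r = 0.72 without the 2 farthest mice and 0.67 within WT.

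Cd200 ran against the neuronal sum, with r = -0.80 and rho = -0.81. Its r was -0.69 without the 2 farthest mice and -0.91 within the 6 WT mice, which include replicates 1 and 2, whose libraries stand apart. Cd47 gave r = 0.41 and rho = 0.50 over all mice and r = -0.076 within WT.

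Of the receptors Csf1r had r = 0.78 and rho = 0.64 with the microglial sum, with r = 0.55 without the 2 farthest mice and 0.68 within WT. Sirpa gave r = 0.71 and rho = 0.78, with r = 0.56 without the 2 farthest mice and 0.34 within WT. Cx3cr1 gave r = 0.45 and rho = 0.69. Its r was 0.39 without the 2 farthest mice and 0.17 within WT, where its level varied little while the marker sum ran from 703 to 1253 CPM. Tgfbr1 gave r = 0.52 and rho = 0.50, with r = 0.32 within WT.

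Over the 22 biopsies the members did not move as a block. The Spearman rho of Cd200 with Cx3cr1 was -0.66 and with Csf1r -0.58. Cx3cl1 with Csf1r gave 0.55 and Cx3cr1 with Csf1r 0.47. These are descriptions over libraries that share depth and scaling. Among 5418 genes with a mean of at least 20 counts per biopsy, those with the pattern most like Cx3cl1 were Rgs7bp, Npy and R3hdm4 (rho 0.87 to 0.81). Those most like Cx3cr1 were Pdp1, Hivep1 and Pcdh10 (rho 0.80 to 0.79), and those most like Cd200 were Mrpl38, Klhl22 and Mrpl41 (rho 0.79 to 0.76). For Csf1r they were Tnk2, Dusp3 and Rgs20 (0.77 to 0.73), for Sirpa Basp1, Rnf187 and Rnf157 (0.76 to 0.73), for Il34 Cap2, Ogfod2 and Slc39a10 (0.78 to 0.71) and for Cd47 Prkcb, Psip1 and Ube2s (0.69 to 0.68).

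The wider pathway was read through 48 further genes, including Cd200 receptors, sheddases of fractalkine, partners of Cd47 and Sirpa, the TGF-beta pathway and microglial regulators. Of these 23 were tested between the genotypes, none passed in either direction, 16 were positive and the median log2 fold change was 0.20. The smallest adjusted p was 0.369. Nrros, which presents latent Tgfb1 on microglia, stood first with 4.31 ± 2.26 CPM in WT and 14.0 ± 8.81 in BERKO, a log2 fold change of 1.70 ± 0.64 (adjusted p = 0.369 by edgeR). Thbs3, of the thrombospondin family that includes ligands of Cd47, was lower, with 15.6 ± 12.0 and 5.25 ± 3.25 CPM (-1.54 ± 0.63, adjusted p = 0.420). Ptpn11, the phosphatase Shp2 that binds Sirpa, gave 0.45 ± 0.25 (adjusted p = 0.550), the TGF-beta co-receptor Eng 0.74 ± 0.48 (0.610), the purinergic receptor P2ry12 of microglia 0.45 ± 0.29 (0.611) and the receptor kinase Tyro3 0.48 ± 0.32 (0.617). Cd200r1, the receptor of Cd200, had 15 reads in all and was not tested (it was named after its values were seen).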

How the data were processed

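The authors deposited raw counts of reads for each feature of 22 biopsies, with an annotation of each feature and a table of ratios. Counts came from 3 lanes, except for the left biopsy of BERKO replicate 5, which had 1 lane. The ratios equal the counts divided by the spike-in total of the library (recomputed here, largest difference 0 reads, and used for nothing else). Per the submitters' processing notes the build was mm9 and the tools were Bowtie and TopHat2 2.0.12; read filters and the drawing of features are not given in the sources used here. All 64 columns were assigned from their names (side, genotype, and a last digit read as the mouse). Lanes were summed per biopsy, and biopsies per mouse for the genotype test. The counts are reads after PCR, so limits cover counting error only. Nothing in the labels says how the mice relate to litters or cages, so p-values measure the spread between these mice. For fits with the mouse as a block that is the spread of their left-right differences.

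Single-symbol features (95410) were summed to 15297 genes, and 5.22% of endogenous reads lay outside them. Tests used edgeR 4.0.16 (quasi-likelihood, robust dispersion, TMM, default expression filter, two-sided, Benjamini-Hochberg over all features tested, threshold 0.05) in R 4.3.3. Side fits had the mouse as a block, a pairing that rests on the mouse number in the labels: after subtracting group means, both biopsies of a mouse gave r of -0.11 to 0.31, and in 3 of 11 mice the own left biopsy was the best match of the right one. Each standard error is the absolute log2 fold change over the square root of its F. Feature against gene was edgeR's diffSpliceDGE, and alternatives used DESeq2 1.42.0 and limma 3.58.1. Marker sums were compared by exact permutation over 462 splits of the mice. That test took the difference of mean log2 sums, while the log2 ratio printed beside it is that of the mean CPM. Relations to the members (SciPy 1.17.1) are given with no test. Scripts were tested on simulated data. Promoters came from RefSeq (GRCm38.p6) and no coordinates were converted between builds.

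Members and lists were chosen with earlier results of these data known. All members are named, with up to 3 markers per list by level, the 6 pathway genes of smallest p, and the 3 genes of highest rho for each tested member. Alternatives included other tests and scalings, filters, start features only, the replicate block and leaving out each mouse.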

Additional observations from a re-analysis of the deposited data

Results flagged for a closer look

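In groups of 4 to 10 samples the gap of the highest or lowest sample to its neighbour was compared with the range of the group. Of 59 groups 5 had a sample farther out than the 95% limit of Dixon's test, which chance exceeds in about 1 in 20 groups. Csf1 stood at 8.15 CPM in BERKO replicate 6 beside 0 in the other 4 BERKO mice, and at 13.7 CPM in its right biopsy beside 0 in the other 4 right BERKO biopsies. Tgfbr1 stood at 26.1 CPM in the left biopsy of BERKO replicate 3, where the other 4 left BERKO biopsies had 0 to 6.73 CPM. The log2 ratio of Cd47 to Sirpa was -2.19 in BERKO replicate 2, below the other 4 BERKO mice. The log2 ratio of Il34 to Csf1r was -2.35 in WT replicate 2, below the other 5 WT mice.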

How the results depend on the processing

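No member passed the gene-level test under any alternative, and the 7 tested members kept their direction between the genotypes in 19 alternative fits each. The count of genes past the threshold was 7 in the reported fit, 30 with DESeq2, 2 with limma-voom, 45 with spike-in scaling, 14 with no filter, 33 with the replicate block and 1 (without BERKO replicate 3) to 18 (without WT replicate 4) leaving out 1 mouse. It was also below the reported count by more than 1.5 times without WT replicate 2, 3, 5 or 6 or BERKO replicate 4, 5 or 6 (2 to 4). On right biopsies it was 5, and 0 to 6 leaving out 1 mouse. For left biopsies the count was 0, and 0 to 1 leaving out 1 mouse. For left against right it was 0, 25 without the 3 WT libraries and 0 to 3 leaving out 1 mouse. Features past the threshold numbered 15 in the reported fit, 40 with spike-in scaling, 99 with DESeq2, 80 with the replicate block and 8 to 47 leaving out 1 mouse (47 without WT replicate 4). Member features numbered 1, with 2 under DESeq2, 0 without the 3 WT libraries and 0 to 1 leaving out 1 mouse. The cause of these shifts was not tested.

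The Cx3cl1 3' UTR feature ranged from 0.87 to 1.15 leaving out 1 mouse and was 0.79 without the 3 WT libraries, where it missed the threshold. WT and BERKO mice were taken to share only a replicate number, without pairing: same-numbered mice correlated by -0.03 to 0.05 and 2 of 5 WT mice correlated best with their own number. Some small differences, none past the threshold, changed sign. Leaving out 1 mouse, the Cx3cl1 5' UTR feature ranged from -0.088 to 0.099, the Cd47 5' UTR feature from -0.28 to 0.27, the Sirpa 5' UTR feature from -0.073 to 0.22 and Sirpa CDS features from -0.38 to 0.42 and -0.10 to 0.55. Cd47 on the left ranged from -0.17 to 0.26 and in genotype by side from -0.33 to 0.19, Csf1r in genotype by side from -0.20 to 0.41, Tgfbr1 in the same term from -1.02 to 0.20 and the monocyte and neutrophil marker sum (log2 ratio) from -0.020 to 0.72. With the replicate block the Cx3cl1 5' UTR feature was -0.20, a Cd47 CDS feature -0.10 and the Sirpa 5' UTR feature -0.061. With limma-voom the Cd47 5' UTR feature was -0.075, that CDS feature -0.20 and the first Sirpa CDS feature 0.011, which was 0.11 with spike-in scaling. Without the 3 WT libraries the Cx3cl1 5' UTR feature was -0.10, Cd47 on the left -0.045 and Il34 in genotype by side 0.0096. For features, DESeq2, limma-voom, spike-in scaling, the replicate block and leaving out the 3 libraries were chosen after seeing the data, as were all alternatives on each side and leaving out the 3 libraries in genotype by side.

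Depth limits Csf1 and Tgfbr1, with 50 and 117 reads. The design allows no exact p below 0.00216.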
